A study of Mus musculus with 12 samples.

Results

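The enzymes that build nucleotides and supply their one-carbon units were followed as a module of 32 genes in sorted mouse osteoblasts. The members were taken by gene name from the deposited count table, and all 32 were found among its 32288 genes and transgenes. They cover de novo purine synthesis (8 genes), the branch from IMP to guanine nucleotides (3), pyrimidine synthesis (5), serine synthesis (3), folate one-carbon metabolism (5), deoxynucleotide supply (6) and nucleoside diphosphate kinases (2). All 32 passed the filter on low counts in every comparison.

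The libraries were made by bulk RNA-seq from mGFP+ metaphyseal cells of femurs and tibias. Juvenile Osx+ osteoblasts (4 libraries) and adult Osx+ osteoblasts (4) came from Osx-CreERT2; mTmG mice at 3 and 8 weeks of age, with 2 male mice pooled per library. These mice were injected with tamoxifen on 3 consecutive days, and their cells were sorted 2 days later. In mTmG mice, Cre recombination switches the membrane fluorescent protein of a cell from tdTomato to GFP, and Osx, also called *Sp7*, is a transcription factor of the osteoblast lineage. c-Myc-induced osteoblasts (2 libraries) carried in addition LSL-tTA and Col1a1::TetO–c-Myc, so that tamoxifen switched on tTA and tTA switched on c-Myc, and c-Myc + R172H osteoblasts (2) also carried Trp53-LSL-R172H, a dominant-negative mutant p53. Mice of both induced groups were injected on 2 consecutive days at 3 weeks of age, and their cells were sorted 7 days later. All mice of all 4 groups thus received tamoxifen, and no group had tTA without the c-Myc transgene. The cut that removed the diaphysis lay about 2 mm below the growth plate in juvenile and adult mice and about 5 mm below it in the induced groups. The induced mice are described as 5 weeks old at dissection, which injection at 3 weeks and sorting 7 days later do not add up to. The sources differ on their sex, with both sexes in one place and males for all RNA-seq in another. Mice with the tet-regulated transgene, or pregnant females, were also given doxycycline or tetracycline in drinking water until a set time before analysis. This was done to prevent leaky transgene expression, and the methods do not describe it for the juvenile and adult mice. These differences between juvenile and induced libraries cannot be told apart from c-Myc itself, and with bulk RNA more RNA per cell and more cells of a kind cannot be told apart either.

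Total counts ranged from 9066154 to 15684412 per library. From 35.2% to 65.3% of them fell on *Col1a1*, *Col1a2* and *Gm26917*, so counts were scaled by the TMM method and are given as CPM, counts per 1e6 of the scaled library size. *Gm26917* alone held 7.19% to 8.46% of all counts in juvenile and 4.70% to 10.5% in adult libraries. Its share was 28.2% to 29.4% in c-Myc and 26.5% to 28.7% in c-Myc + R172H libraries. The 32 members together held from 0.0633% to 0.109% of all counts in juvenile and adult libraries and from 0.375% to 0.484% in induced libraries. All 10 osteoblast markers examined were tested and fell after c-Myc induction, with a summed level of 596123 to 873834 CPM in juvenile, 363662 to 649125 CPM in adult, 104109 to 137490 CPM in c-Myc and 58941 to 60854 CPM in c-Myc + R172H libraries. The 11 chondrocyte markers, led by *Col2a1*, had a summed level of 18382 to 35723 CPM in juvenile, 43190 to 135496 CPM in adult, 1860 to 2116 CPM in c-Myc and 871 to 1040 CPM in c-Myc + R172H libraries, and none of them was at 0 in any library. Of 6 marrow stroma markers, 4 (*Cxcl12*, *Lepr*, *Kitl* and *Ebf3*) fell with c-Myc and *Lpl* rose, and their summed level was 281 to 376 CPM in juvenile, 356 to 607 CPM in adult, 113 to 191 CPM in c-Myc and at most 112 CPM in c-Myc + R172H libraries. The summed markers of endothelial cells were at most 1.34 CPM, of erythroid cells at most 0.681 CPM, of muscle at most 3.24 CPM and of leukocytes at most 12.3 CPM in every library, with *Cd3e*, *S100a8*, *Myh1* and *Myh4* at 0 throughout. *Ctsk* and *Mmp9* held nearly all of the summed osteoclast markers, which ranged from 203 to 411 CPM in juvenile and adult libraries and from 52.3 to 105 CPM in induced libraries, whereas *Calcr* was at 0 in all libraries.

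De novo purine synthesis builds the purine ring step by step on a ribose phosphate made by the PRPP synthetases, and ends in IMP, the common precursor of adenine and guanine nucleotides. De novo pyrimidine synthesis builds the ring first and then attaches it to the ribose phosphate. Folate carries the one-carbon units that purine and thymidylate synthesis consume, and serine is their main source. Ribonucleotide reductase then turns ribonucleotides into the deoxynucleotides used for DNA. The c-Myc protein is a transcription factor that binds, together with MAX, the E-box letters CACGTG, and genes of nucleotide synthesis are textbook targets of it. Bone-forming osteoblasts are also known for high use of serine and glycine, because collagen is rich in glycine.

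The first comparison asked how the module differed between c-Myc-induced and juvenile osteoblasts. *Myc* itself was at 44.3, 52.2, 39.8 and 47.2 CPM in the juvenile libraries, at 624 and 658 CPM in the c-Myc libraries and at 639 and 748 CPM in the c-Myc + R172H libraries. For *Myc*, c-Myc over juvenile, the log2 fold change came to 3.78 (SE 0.11) with an adjusted p of 2.07e-09. Fold changes, their approximate SE and the adjusted p come from edgeR's quasi-likelihood test over all 12588 genes tested, and a gene was called at an adjusted p below 0.05.

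Of the 32 members, 29 rose with c-Myc, none fell and 3 did not pass the test. Among all genes tested, 28.4% were called higher and 25.0% lower in this comparison. With library totals as the scaling, 6803 genes were called higher and 1115 lower, in place of 3577 and 3149. The median log2 fold change was 2.16 over the members and 0.037 over all genes tested. The increase was at least 1 on the log2 scale for 27 members, against 18.4% of all genes tested. Both c-Myc libraries lay above all 4 juvenile libraries for each of these 29 members, a separation that 35.7% of all genes tested showed. The summed level of the members was 1002, 972, 1029 and 917 CPM in juvenile libraries 1 to 4 and 3198 and 2930 CPM in the c-Myc libraries. The heat map of the members by library shows this as a step from the juvenile to the c-Myc columns in all role groups, with *Impdh1*, *Ctps2* and *Nme2* as rows without it. For *Paics* adult replicate 1, at 96.0 CPM, lay between the c-Myc libraries at 102 and 88.8 CPM. The other adult libraries, at 43.3, 60.7 and 79.5 CPM, lay below both.

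**Figure D1:**
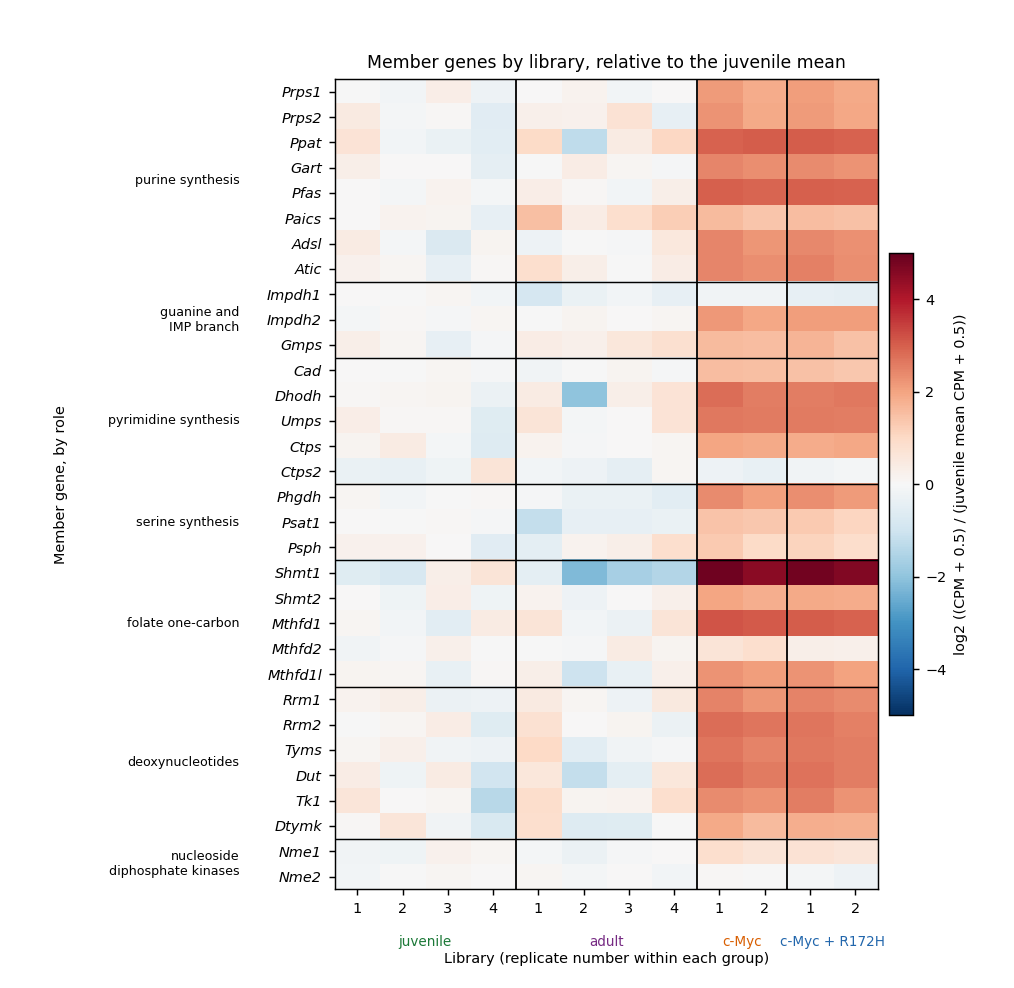
The 32 member genes (rows, grouped by role) in the 12 libraries (columns, grouped by condition), coloured by the log2 ratio of CPM + 0.5 to the juvenile mean CPM + 0.5. Red marks levels above and blue levels below the juvenile mean. *Shmt1* has the darkest red in all 4 induced libraries, and *Impdh1*, *Ctps2* and *Nme2* stay pale there.

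All 8 genes of de novo purine synthesis rose, with log2 fold changes from 1.48 to 3.02 and a median of 2.35. *Ppat*, the amidotransferase of the committed step, was at 12.8, 6.91, 6.12 and 5.22 CPM in the juvenile libraries, at 63.3 and 67.5 CPM in the c-Myc libraries and at 67.4 and 64.0 CPM in the c-Myc + R172H libraries. Every induced library of *Ppat* thus lay above every juvenile one, and the increase on the log2 scale was 3.02 (SE 0.24) at an adjusted p of 6.1e-07. The next largest was that of *Pfas*, which makes the amidine intermediate, at 2.95 (SE 0.10), followed by *Atic*, which performs the last 2 steps (2.38, SE 0.14), *Gart*, which holds 3 activities including a folate-dependent one (2.37, SE 0.15), and *Adsl*, the adenylosuccinate lyase (2.33, SE 0.21). *Paics*, which carries out a carboxylation and the step after it, had the smallest increase of the group, 1.48 (SE 0.15). *Ppat* and *Paics* lie head to head on chromosome 5 of GRCm38, *Ppat* (ENSMUSG00000029246) from 76913249 to 76951578 on the minus strand and *Paics* (ENSMUSG00000029247) from 76951307 to 76967509 on the plus strand. Their exons overlap by 272 bases, 6.15% of the merged exons of *Ppat* and 8.67% of those of *Paics*, and since the strand setting of the counting is not stated, reads there could not be assigned to one of them for certain. For *Gart* the overlap with an antisense transcript, *Gm15964*, covered 19.7% of its merged exons.

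The PRPP synthetases, which supply the activated ribose for purines and pyrimidines alike, rose about equally. *Prps1* was at 10.4, 9.60, 13.6 and 8.94 CPM in the juvenile libraries and at 48.2 and 39.3 CPM in the c-Myc libraries. *Prps2* was at 7.49, 4.95, 5.56 and 3.48 CPM and at 27.7 and 21.6 CPM in the same libraries. The log2 fold changes were 2.02 (SE 0.17) and 2.16 (SE 0.24), and both genes were separate between the groups.

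In the guanine branch, the isoenzymes of IMP dehydrogenase, which catalyse the rate-limiting step from IMP towards GMP, behaved differently. *Impdh2* (chromosome 9 from 108560286 to 108565584, GRCm38) was at 23.7, 26.7, 24.2 and 27.1 CPM in the juvenile libraries, at 116 and 99.2 CPM in the c-Myc libraries and at 110 and 109 CPM in the c-Myc + R172H libraries. *Impdh1* (chromosome 6 from 29200434 to 29216364) was at 115, 112, 121 and 102 CPM in the juvenile, 99.7 and 99.3 CPM in the c-Myc and 84.7 and 82.0 CPM in the c-Myc + R172H libraries. *Impdh2* rose by 2.06 on the log2 scale (SE 0.10, adjusted p = 2.25e-08), whereas *Impdh1*, whose c-Myc libraries lay just below all juvenile ones, had -0.20 (SE 0.10, adjusted p = 0.0944). Without juvenile replicate 4 *Impdh1* was called lower (-0.25, adjusted p = 0.0290). The sign of *Impdh1* rests on the scaling, since it was 0.63 when libraries were scaled by their totals, in a fit where the median of all genes was 0.87. *Gmps*, which aminates XMP to GMP, rose by 1.55 (SE 0.17).

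The contrast can also be read within each library, where no scaling enters. The counts of *Impdh2* were between 0.201 and 0.265 times those of *Impdh1* in the juvenile libraries, between 0.254 and 0.397 times in the adult ones, and between 0.999 and 1.33 times in the 4 libraries with c-Myc. The mean log2 ratio was -2.14 ± 0.19 (SD, n = 4) in juvenile libraries and 0.25 ± 0.19 (SD, n = 4) in the libraries with c-Myc, a difference of 2.40 (exact permutation test over libraries, 2-sided, p = 0.0286, adjusted p = 0.0762 over 16 ratio tests). That p is the smallest that 4 libraries against 4 allow, so the adjusted value could not pass the threshold unless more of the 16 tests reached it.

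Pyrimidine synthesis showed a similar exception. *Dhodh*, the mitochondrial dihydroorotate dehydrogenase, was at 4.48, 4.54, 4.73 and 3.35 CPM in the juvenile libraries, at 32.9 and 27.6 CPM in the c-Myc libraries and at 27.9 and 29.3 CPM in the c-Myc + R172H libraries, and had the largest increase of the group (log2 fold change 2.80, SE 0.18). *Umps*, which makes UMP, followed with 2.63 (SE 0.18), *Ctps*, a CTP synthase, with 1.93 (SE 0.21), and *Cad*, the large enzyme of the first 3 steps, with 1.49 (SE 0.08). *Cad* was nevertheless the pyrimidine gene with the highest level per length in juvenile libraries, 18.7 ± 0.92 CPM per kb of merged exon (SD, n = 4), and its CPM rose from a mean of 153 to 436.

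The other CTP synthase did not move with *Ctps*. *Ctps2* was at 7.12, 6.91, 7.65 and 14.5 CPM in the juvenile libraries, at 7.49 and 6.86 CPM in the c-Myc libraries and at 8.01 and 8.54 CPM in the c-Myc + R172H libraries. All 8 values except that of juvenile replicate 4 lay within a narrow range, and the log2 fold change was -0.35 (SE 0.31, adjusted p = 0.372). *Ctps* was at 15.1, 18.5, 12.8 and 8.57 CPM in the juvenile and 54.9 and 52.6 CPM in the c-Myc libraries. Per library the log2 ratio of *Ctps* to *Ctps2* counts averaged 0.62 ± 0.96 (SD, n = 4) in juvenile and 2.78 ± 0.14 (SD, n = 4) in libraries with c-Myc, with the same exact p of 0.0286 (adjusted p = 0.0762). Without juvenile replicate 4, which had the only ratio below 1, the difference of 2.17 was 1.71.

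The 3 genes of serine synthesis rose, by a median of 1.37. *Phgdh*, which diverts a glycolytic intermediate into the pathway, was at 19.2, 16.3, 17.4 and 18.5 CPM in the juvenile libraries, at 93.8 and 76.3 CPM in the c-Myc libraries and at 90.3 and 79.2 CPM in the c-Myc + R172H libraries (log2 fold change 2.23, SE 0.12, adjusted p = 3.46e-08). *Psat1*, the transaminase of the second step, started higher, at 61.7, 60.5, 63.7 and 58.3 CPM, and reached 166 and 155 CPM (1.37, SE 0.09). *Psph*, the phosphatase of the last step, stayed low, with means of 4.80 and 11.3 CPM (1.20, SE 0.27, adjusted p = 0.00257). Without c-Myc replicate 1 *Psph* was no longer called (adjusted p = 0.0558), and 10.4% of its merged exons overlap *Cct6a* on the other strand.

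The folate enzymes differed most among themselves. *Shmt1*, the cytosolic serine hydroxymethyltransferase, which moves a carbon from serine to folate, is listed as ENSMUSG00000020534 and lies on chromosome 11 from 60788104 to 60811718 (GRCm38). It was low in cells without the transgene, at 1.37, 1.14, 2.92 and 3.85 CPM in the juvenile libraries (15, 11, 21 and 31 counts), and was at 82.6 and 63.1 CPM in the c-Myc libraries and 79.9 and 70.0 CPM in the c-Myc + R172H libraries. Its log2 fold change of 5.02 (SE 0.27, adjusted p = 3.33e-08) was the largest of the members and ranked 140 from the top among the 12588 genes tested. *Shmt2*, the mitochondrial isoenzyme, was at 46.8, 39.0, 57.6 and 39.1 CPM in the juvenile and at 182 and 161 CPM in the c-Myc libraries (1.89, SE 0.14). The mitochondrial form thus had 10.0 to 33.1 times the counts of the cytosolic one in juvenile libraries and 2.11 to 2.55 times in the 4 libraries with c-Myc. The difference in mean log2 ratio was -3.22, again with the smallest exact p of 0.0286 (adjusted p = 0.0762).

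The other folate genes lay between these or below them. *Mthfd1*, the cytosolic enzyme with 3 activities that interconverts folates, rose by 3.14 (SE 0.17), and *Mthfd1l*, the mitochondrial formate producer, by 2.17 (SE 0.14). *Mthfd2*, the mitochondrial dehydrogenase and cyclohydrolase, was already at 42.9, 46.9, 58.3 and 47.8 CPM in the juvenile libraries and reached 76.6 and 87.1 CPM in the c-Myc libraries (0.72, SE 0.12, adjusted p = 0.000304), the smallest increase of the members that were called. *Mthfd2l*, its paralogue and no member, was at 1.55, 3.61, 4.17 and 2.24 CPM in the juvenile and 4.38 and 2.44 CPM in the c-Myc libraries and was not called (0.23, SE 0.45). The log2 ratio of *Mthfd2* to *Mthfd2l* counts averaged 4.15 ± 0.51 in juvenile and 4.18 ± 0.67 in libraries with c-Myc (SD, n = 4 each; exact p = 0.971).

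All 6 genes of deoxynucleotide supply rose, by a median of 2.58. *Dut*, which removes dUTP, had the largest increase, from 7.67, 4.95, 7.93 and 2.73 CPM in the juvenile libraries to 43.4 and 38.2 CPM in the c-Myc libraries, with 41.4 and 36.9 CPM in the c-Myc + R172H libraries (log2 fold change 2.78, SE 0.27, adjusted p = 2.68e-06). *Rrm2*, the ribonucleotide reductase subunit made in S phase, followed with 2.77 (SE 0.18), *Tyms*, thymidylate synthase, with 2.69 (SE 0.19), *Tk1*, the cytosolic thymidine kinase, with 2.46 (SE 0.39), *Rrm1*, the large reductase subunit, with 2.34 (SE 0.16), and *Dtymk*, thymidylate kinase, with 1.76 (SE 0.26). For each of the 6 both c-Myc libraries lay above all juvenile ones.

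The paralogues of these genes that do not follow the cell cycle rose less or were not called. *Rrm2* was at 10.5, 11.4, 14.0 and 6.83 CPM in the juvenile and 76.0 and 71.8 CPM in the c-Myc libraries, while *Rrm2b*, the p53-inducible small subunit, was at 2.92, 1.96, 3.20 and 2.36 CPM and at 5.89 and 5.90 CPM (1.15, SE 0.32, adjusted p = 0.00953). *Tk1* was at 4.02, 2.48, 2.64 and 0.621 CPM and at 14.8 and 13.3 CPM, while mitochondrial *Tk2* was at 5.57, 7.33, 5.42 and 3.98 CPM and at 6.94 and 4.48 CPM (0.0097, SE 0.32). The difference in mean log2 count ratio was 1.59 for *Rrm2* to *Rrm2b* and 2.83 for *Tk1* to *Tk2*, juvenile against libraries with c-Myc (exact p = 0.0286 and adjusted p = 0.0762 for each). *Prps2* to *Prps1* showed no such difference (0.14, exact p = 0.400). The plot of ratios within libraries shows the induced points of Impdh, *Ctps*, Shmt, Nme, *Rrm2* and Tk pairs apart from the juvenile ones, and those of the Prps and *Mthfd2* pairs among them.

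**Figure D2:**
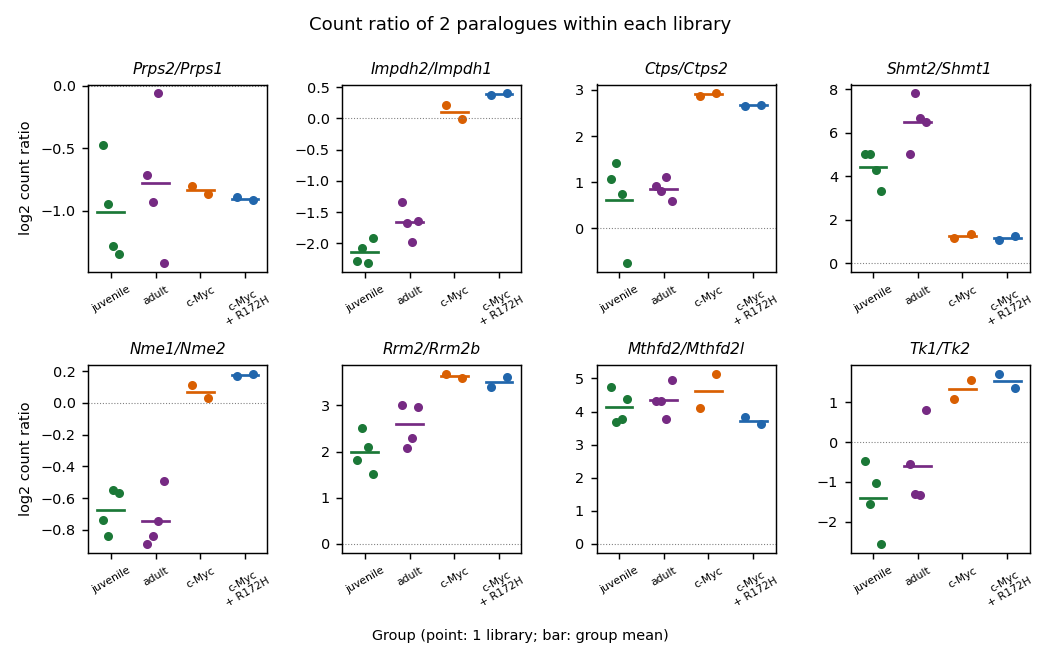
Log2 ratio of the counts of 2 paralogues within each library (vertical axis, each panel on its own scale) by group (horizontal axis); points are libraries, bars group means, and the dotted line marks equal counts where it is in range. *Impdh2* to *Impdh1* goes from a juvenile mean of -2.14 to 0.11 with c-Myc and 0.40 with c-Myc + R172H, and *Shmt2* to *Shmt1* from 4.42 to 1.25 and 1.16.

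Cell cycle genes moved together with the deoxynucleotide genes. Of 14 S-phase genes, 13 rose with c-Myc, by a median of 3.05 over the list, and their summed level was 81.0 to 115 CPM in juvenile and 715 to 797 CPM in c-Myc libraries. All 10 genes of G2 and mitosis rose, by a median of 2.51. *Mki67* went from 44.5, 40.9, 26.3 and 25.7 CPM to 165 and 169 CPM, and *Pcna* from 16.6, 19.2, 24.1 and 22.5 CPM to 84.0 and 71.9 CPM. The summed S-phase level was 742 to 780 CPM in c-Myc + R172H libraries, so it moved with the members in both induced groups, and its part in their increase was not tested. The same holds for the fall of the chondrocyte, osteoblast and marrow stroma markers given above.

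The nucleoside diphosphate kinases, which pass phosphate from ATP to other nucleoside diphosphates, were divided, with 1 of 2 called. *Nme1* was at 67.6, 67.3, 90.8 and 83.6 CPM in the juvenile libraries, at 138 and 122 CPM in the c-Myc libraries and at 128 and 117 CPM in the c-Myc + R172H libraries (log2 fold change 0.73, SE 0.12, adjusted p = 0.000311). *Nme2* was at 113, 120, 133 and 124 CPM in the juvenile and 127 and 119 CPM in the c-Myc libraries, so the groups overlapped (-0.01, SE 0.09, adjusted p = 0.932). The direction of *Nme2* depends on the scaling, with 0.83 under library totals, again below the 0.87 of all genes. The 2 genes are neighbours on chromosome 11 with similar sequences. In addition, 48.9% of the merged exons of *Nme2* and 12.5% of those of *Nme1* are shared with a readthrough gene, *Gm20390*, that has no entry in the count table, so how reads were split between them is uncertain. As counted, the log2 ratio of *Nme1* to *Nme2* averaged -0.67 ± 0.14 (SD, n = 4) in juvenile libraries and 0.12 ± 0.071 (SD, n = 4) in libraries with c-Myc, a difference of 0.80 (exact permutation test, p = 0.0286, adjusted p = 0.0762).

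Set side by side per kb of merged exon, the order of the members changed with c-Myc. In juvenile libraries *Nme2* was highest with 105 ± 7.0 CPM per kb (SD, n = 4), then *Impdh1* with 34.2 ± 2.4, *Nme1* with 23.1 ± 3.5 and *Cad* with 18.7 ± 0.92, where the lowest library of *Nme1*, at 20.1, was just above the highest of *Cad*, at 19.9. The lowest were *Tk1* with 0.469 ± 0.27 and *Shmt1* with 0.597 ± 0.33 CPM per kb, which did not differ beyond their spread. In c-Myc libraries *Nme2* was again highest with 105 ± 4.8 (SD, n = 2), followed by *Shmt2* with 55.2 ± 4.8 and *Cad* with 53.2 ± 0.92, which overlapped, and *Gart* with 47.3 ± 3.5. *Impdh1* went from rank 2 to rank 10 and *Shmt1* from rank 31 to rank 19, while *Ctps2* with 1.52 ± 0.094 CPM per kb became the lowest member.

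The sequence before the start sites was read for members and for all other genes from RefSeq promoters of GRCm38.p6, 250 bases before to 50 after a start. Of the members, 30 had at least 1 of 37 promoters there, and *Dhodh* and *Pfas* had none. The E-box letters CACGTG, which read the same on both strands, were found for 6 of 30 members (20.0%) and for 8.09% of 27025 genes. The E2F letters TTTCCCGC or TTTGGCGC, on either strand, were found for 2 of 30 members (6.67%, *Ppat* and *Prps2*) against 1.80% of genes. The letters TGATGNAA, on either strand, as in elements bound by ATF4, a regulator of serine synthesis genes, were found for *Prps1* alone (3.33%) against 4.51% of genes. With so few members these shares are descriptions, and a match is not a bound site. The 7 stretches below show each E-box of a member with 12 bases on either side, 5′ to 3′ on the strand of the gene, with the E-box in capitals.
*Atic*, chr1:71557137-71557166, plus strand: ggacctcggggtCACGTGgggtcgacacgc
*Dtymk*, chr1:93802065-93802094, minus strand: gtctcgaacttcCACGTGaccagagcctgc
*Impdh2*, chr9:108560314-108560343, plus strand: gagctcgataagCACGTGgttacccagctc
*Nme1* downstream start, chr11:93968037-93968066, minus strand: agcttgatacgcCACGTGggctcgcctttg
*Nme1* upstream start, chr11:93968273-93968302, minus strand: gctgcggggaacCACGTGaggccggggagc
*Paics*, chr5:76951087-76951116, plus strand: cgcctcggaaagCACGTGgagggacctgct
*Tyms*, chr5:30073669-30073698, minus strand: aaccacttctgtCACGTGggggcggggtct

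The E-box began 7 bases before the RefSeq start of *Atic*, 18 and 29 bases before those of *Nme1*, 61 before that of *Tyms*, 110 before that of *Impdh2*, 148 before that of *Dtymk* and 203 before that of *Paics*. In the GENCODE annotation of the same build, those of *Dtymk* and *Tyms* were intergenic, those of *Atic*, *Impdh2* and the upstream start of *Nme1* fell in annotated 5′ exon sequence of the gene itself, that of the downstream start of *Nme1* lay in its intron, and that of *Paics* lay in an exon of *Ppat*. The 6 genes with an E-box rose by log2 fold changes from 0.73 (*Nme1*) to 2.69 (*Tyms*), within the range of the other members. Within the pairs, *Impdh2* and *Nme1* had one, whereas *Impdh1* and *Nme2* had none in the windows of their 2 listed starts each. No E-box was found for either gene of the *Ctps*, Prps and Shmt pairs, where *Ctps* rose and *Ctps2* was not called. *Shmt1*, with the largest increase, had none of the 3 motifs in its window. The part of any of these motifs in the increases was not tested.

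The next comparison asked what mutant p53 R172H added to c-Myc. It was made in the same fit and shares the c-Myc libraries with the comparison above. None of the 32 members was called by edgeR's quasi-likelihood test in either direction, and DESeq2 called none, at a background of 0.00794% of genes called higher and 0.461% called lower. At an unadjusted p below 0.05 there was 1 member of 32, *Mthfd2*, and 589 of 12588 genes, a similar share. The log2 fold changes of the members, c-Myc + R172H over c-Myc, lay between -0.43 and 0.23 with a median of -0.0045. The summed level was 3043 and 2817 CPM in the c-Myc + R172H libraries, next to 3198 and 2930 CPM in the c-Myc libraries. With 2 libraries a group, differences of this size and larger ones may have gone uncalled.

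*Mthfd2* was at 76.6 and 87.1 CPM in the c-Myc and at 59.6 and 59.1 CPM in the c-Myc + R172H libraries. The libraries of the 2 groups did not overlap, but the log2 fold change of -0.43 (SE 0.14) did not pass the test (adjusted p = 0.455). It was called in a fit of these 4 libraries alone (adjusted p = 0.000997). *Impdh1* was next, at 99.7 and 99.3 CPM against 84.7 and 82.0 CPM (-0.23, SE 0.11, adjusted p = 1.00).

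The largest differences in the other roles did not pass the test. Over all members the libraries of the 2 groups were separate for 8, with c-Myc + R172H below for 7 and above for *Ctps2*. Of 67 other genes of these pathways, described below, c-Myc + R172H lay below for 20 and above for 7. The share of all genes separated in this way was not computed, so these counts are descriptions only and give no direction. The fitted log2 fold change was above 0 for 15 of the 32 members and 28 of the 59 other genes tested. Among all genes tested it was above 0 for 6196 of 12588. *Psat1* was at 166 and 155 CPM in the c-Myc and 152 and 129 CPM in the c-Myc + R172H libraries (-0.16, SE 0.11), and *Nme2* at 127 and 119 CPM against 114 and 103 CPM (-0.15, SE 0.11). *Ctps2* differed by 0.23 (SE 0.35), *Tk1*, at 14.8 and 13.3 CPM against 16.9 and 13.3 CPM, by 0.14 (SE 0.42), and *Atic*, at 159 and 148 CPM against 165 and 147 CPM, by 0.06 (SE 0.16). For each of these the SE allows differences in either direction. *Trp53* itself was at 65.3 and 56.0 CPM in the c-Myc and 62.2 and 63.3 CPM in the c-Myc + R172H libraries, which does not tell the wild-type from the mutant transcript.

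Against juvenile osteoblasts, the c-Myc + R172H libraries showed 28 members higher and 1 lower, at a background of 30.4% of genes called higher and 26.3% lower, with a median of 2.13. Library totals gave 7668 genes higher and 1169 lower, in place of 3832 and 3311. This comparison shares the juvenile libraries with that of c-Myc alone, so its values are given beside it and not as a repeat. The largest increase was again listed for *Shmt1* (5.09, SE 0.27), then for *Ppat* (3.05, SE 0.24), *Mthfd1* (3.04, SE 0.17) and *Pfas* (3.00, SE 0.10). In the other roles it was that of *Impdh2* (2.11), *Dhodh* (2.74), *Phgdh* (2.25), *Dut* (2.75) and *Nme1* (0.68). The lower member was *Impdh1*, which fell by 0.43 on the log2 scale with TMM (SE 0.10, adjusted p = 0.00227) but had 0.61 with library totals, in a fit where the median of all genes was 1.12. *Mthfd2* (0.29, SE 0.12, adjusted p = 0.0652), *Ctps2* (-0.12, SE 0.31) and *Nme2* (-0.16, SE 0.09) were not called. *Mthfd2* was called without juvenile replicate 3 (adjusted p = 0.00933), and without c-Myc + R172H replicate 1 *Psph* (1.06, SE 0.27) was no longer called (adjusted p = 0.0790). The plot of fitted fold changes shows the 2 induced groups side by side, with the open symbols near 0.

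**Figure D3:**
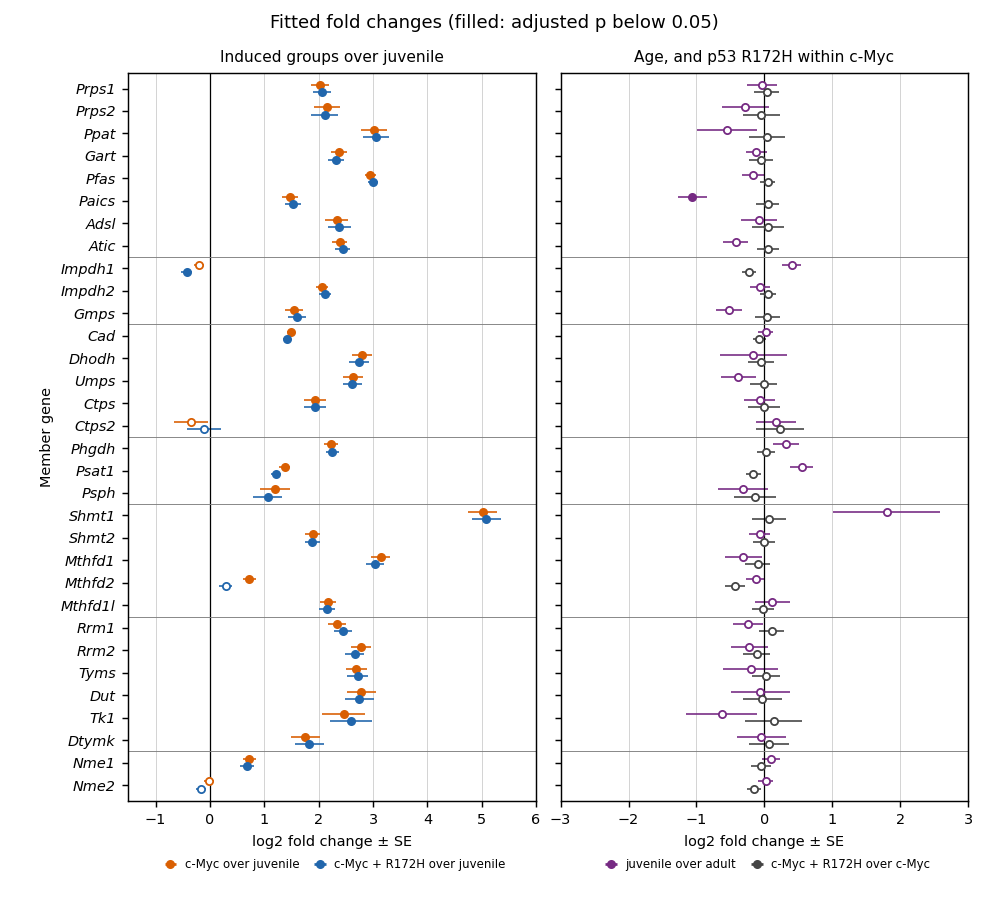
Log2 fold change with its SE (horizontal axis) for the 32 members (vertical axis, grouped by role) in the 4 comparisons; filled points had an adjusted p below 0.05. The left panel gives c-Myc and c-Myc + R172H over juvenile, where most members lie between 1 and 3 and *Shmt1* at 5.02 and 5.09; in the right panel the only filled point is *Paics*, juvenile over adult.

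The age comparison asked whether juvenile and adult Osx+ osteoblasts differ in the module. In a fit of these 8 libraries, 1 of 32 members was called lower in juvenile osteoblasts and none higher, where 3.23% of 11345 genes tested were called lower and 1.89% higher. With library totals as the scaling, 53 genes were called higher and 793 lower, in place of 214 and 367. At an unadjusted p below 0.05 there were 6 of 32 members and 2233 of 11345 genes, a similar share. The median log2 fold change, juvenile over adult, was -0.10 for the members and 0.00093 for all genes, and the members' median lay between -0.19 (without adult replicate 2) and -0.042 (without adult replicate 1) when 1 library was left out. The summed level of the members was 917 to 1029 CPM in juvenile and 913 to 1053 CPM in adult libraries.

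The member called was *Paics*. It was at 34.2, 38.3, 37.7 and 25.0 CPM in the juvenile libraries and at 96.0, 43.3, 60.7 and 79.5 CPM in the adult ones. All adult libraries lay above all juvenile ones, with a wider spread, and *Paics* fell by 1.06 on the log2 scale in juvenile libraries (SE 0.21, adjusted p = 0.0125). It was called in each of the 8 fits that left out a library, with log2 fold changes from -1.22 to -0.86. The highest value was that of adult replicate 1, which also had the highest summed chondrocyte markers (135496 CPM), and the lowest adult value was that of adult replicate 2, which had the lowest of them among adult libraries (43190 CPM). Without adult replicate 1 the log2 fold change was -0.86 (adjusted p = 0.0192), and the part of the chondrocyte markers in it was not tested. *Ppat*, its neighbour, was at 12.8, 6.91, 6.12 and 5.22 CPM in juvenile and 15.6, 2.94, 10.4 and 16.5 CPM in adult libraries and was not called (-0.55, SE 0.44).

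*Psat1* leaned the other way. It was at 61.7, 60.5, 63.7 and 58.3 CPM in the juvenile and at 26.3, 45.9, 45.5 and 48.6 CPM in the adult libraries. The ages did not overlap, yet with a log2 fold change of 0.55 (SE 0.16) the adjusted p was 0.0616, so it did not pass. It passed with DESeq2 (adjusted p = 0.0448), with all 12 libraries in the fit (adjusted p = 0.0278), without the filter on low counts (adjusted p = 0.00856) and without adult replicate 2 (adjusted p = 0.0464). In the other 13 of 17 alternatives *Psat1* did not pass, with an adjusted p of up to 0.377. Leaving out 1 library moved its log2 fold change to between 0.38 and 0.63. *Impdh1* was at 115, 112, 121 and 102 CPM in the juvenile and 63.4, 89.6, 103 and 84.3 CPM in the adult libraries, where the highest adult value just exceeded the lowest juvenile one (0.40, SE 0.14, adjusted p = 0.0964). With all 12 libraries in the fit its adjusted p was 0.0458. In the other 16 alternatives *Impdh1* did not pass, with an adjusted p of up to 0.581. For both genes the lowest value was that of adult replicate 1.

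*Shmt1* had the largest fold change of the members by age, but at a level near the limit of detection, taken as 3 counts. It had 15, 11, 21 and 31 counts in the juvenile and 15, 1, 3 and 5 counts in the adult libraries, or 1.37, 1.14, 2.92 and 3.85 CPM against 1.52, 0.113, 0.388 and 0.533 CPM. The groups overlapped, and the log2 fold change of 1.80 (SE 0.79) did not pass the test (adjusted p = 0.213). In the other roles the largest values were those of *Gmps*, at 22.7, 19.9, 13.8 and 17.6 CPM in the juvenile and 23.8, 22.0, 27.4 and 32.5 CPM in the adult libraries (-0.52, SE 0.19), and *Umps*, at 13.5, 11.2, 11.1 and 6.83 CPM against 17.1, 9.93, 10.9 and 17.5 CPM (-0.38, SE 0.26). *Tk1*, at 4.86, 2.71, 2.85 and 4.69 CPM in the adult libraries, had -0.63 (SE 0.52), and *Nme1*, at 71.4, 63.4, 74.0 and 79.1 CPM there, had 0.09 (SE 0.13). These values were unsteady, and leaving out 1 library moved *Umps* to between -0.52 (without juvenile replicate 1) and -0.22 (without juvenile replicate 4), *Tk1* to between -0.99 and -0.31 (without the same libraries) and *Nme1* to between 0.011 (without juvenile replicate 3) and 0.16 (without juvenile replicate 2). None of them passed, and *Mki67* (0.10, SE 0.24) did not either. Of 13 S-phase and 10 G2 and mitosis genes tested, none was called by age. No paralogue ratio differed by age at an adjusted p below 0.05; the lowest unadjusted value was that of *Impdh2* to *Impdh1* (exact permutation test, p = 0.0571). The plot of single members gives these values with those of the induced groups.

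**Figure D4:**
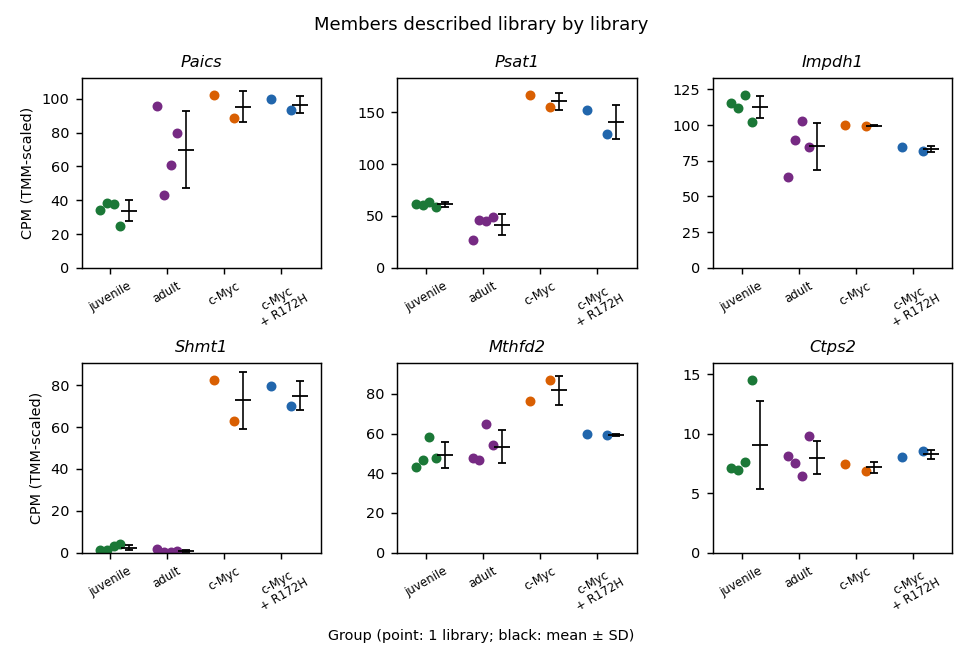
Level of 6 members in each library (CPM scaled by TMM, vertical axis starting at 0) by group (horizontal axis); points are libraries and black marks the mean ± SD. *Paics* is higher in all adult than in all juvenile libraries, *Psat1* lower, *Shmt1* is near 0 in both and above 60 CPM in all induced libraries, and *Impdh1* is lowest in adult replicate 1.

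Other genes of the same pathways, listed by role but with earlier results of these data known, were mixed. Of 68 such genes 67 were in the table and 59 were tested in the c-Myc fit, where 30 rose with c-Myc, 9 fell and 20 were not called, with a median of 0.72. The shares of all genes tested, 28.4% higher and 25.0% lower, are the background of these counts and of those by list. In purine salvage and interconversion 9 of 21 rose and 3 fell, among other folate and methionine cycle genes 10 of 20 rose and 3 fell, and in pyrimidine salvage and breakdown 3 of 7 rose and 2 fell. In deoxynucleoside salvage and dNTP control 6 of 8 rose and 1 fell, and of the other nucleoside diphosphate kinases 2 of 3 rose.

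The largest increases were those of *Gldc*, of the glycine cleavage system, *Dctpp1*, which clears unwanted deoxynucleotides, and *Ahcy*, which hydrolyses S-adenosylhomocysteine. *Gldc* had counts in 1 juvenile library, at 0.516 CPM with the other 3 at 0, and was at 2.37 and 2.10 CPM in the c-Myc libraries, so its fitted log2 fold change of 3.92 (SE 0.94) rests on few counts. *Dctpp1* was at 4.93, 3.30, 3.06 and 1.86 CPM and at 39.4 and 36.0 CPM (3.46, SE 0.24), and *Ahcy* at 6.21, 6.71, 5.15 and 3.35 CPM and at 50.2 and 45.7 CPM (3.12, SE 0.20). For both, the c-Myc libraries lay far above the juvenile ones.

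The largest decreases belonged to *Aldh1l2*, *Ampd3* and *Ggh*. *Aldh1l2*, which oxidises 10-formyl-folate in mitochondria, was at 147, 161, 182 and 154 CPM in the juvenile, 45.0 and 42.3 CPM in the c-Myc and 29.2 and 26.5 CPM in the c-Myc + R172H libraries (-1.90, SE 0.11, adjusted p = 6.05e-08). *Aldh1l2* was thus lower in all induced than in all juvenile libraries, and the flow of one-carbon units was not measured. *Ampd3*, an AMP deaminase, was at 5.57, 4.13, 8.21 and 3.60 CPM and at 0.913 and 2.16 CPM (-1.83, SE 0.52), and *Ggh*, which shortens folate chains, between 10.3 and 15.7 CPM and at 4.06 and 3.86 CPM (-1.63, SE 0.28). In c-Myc + R172H over juvenile osteoblasts, 32 of the 59 rose and 10 fell. Of all genes tested there, 30.4% were called higher and 26.3% lower. *Gldc* (4.24) and *Dctpp1* (3.44) had the largest increases, and *Aldh1l2* (-2.52) and *Ampd3* (-2.48) the largest decreases. Between the induced groups none of the 59 was called, at a background of 0.00794% of genes called higher and 0.461% lower.

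By age, 5 of 55 tested genes of these lists were lower in juvenile osteoblasts and none higher. Of all genes tested by age, 3.23% were called lower and 1.89% higher. *Cda*, a cytidine deaminase, was at 0.457, 0.103, 0 and 0 CPM in the juvenile and at 5.37, 1.35, 1.68 and 2.56 CPM in the adult libraries (fitted log2 fold change -4.02, SE 0.94, adjusted p = 0.0215), on few juvenile counts. *Ak4*, a mitochondrial adenylate kinase, was at 4.29, 6.29, 3.20 and 2.11 CPM in the juvenile and 26.8, 6.10, 11.4 and 21.4 CPM in the adult libraries (-2.04, SE 0.44, adjusted p = 0.0185), with 1 juvenile library above the lowest adult one. As for *Paics*, adult replicate 1 was highest and adult replicate 2 lowest among the adult libraries for both. The other 3 were *Hprt*, *Uck2* and *Cmpk1*.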

How the data were processed

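Bulk RNA-seq libraries (NEBNext Ultra II Directional kit, single-end reads) were trimmed by the authors with cutadapt 4.6, aligned to mm10 with STAR 2.7.11a and counted per gene with HTSeq-count 2.0.5 on uniquely mapped reads. The authors deposited these raw counts, without normalization, for 32288 genes and transgenes. The strand setting of the counting is not given in the sources used here, and reads carry no molecular identifiers, so depth limits cover counting error only. Libraries were grouped by their titles. Whether libraries of an induced group came from separate mice is not stated, so p-values measure the spread between these libraries.

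From the counts, R 4.3.3 with edgeR 4.0.16 was used: default expression filter, TMM factors, robust quasi-likelihood fit and F test, with Benjamini-Hochberg adjustment over all genes tested. The SE was approximated from the fold change and its F statistic. The age fit held the 8 juvenile and adult libraries. The other 3 comparisons shared a fit of the juvenile and induced libraries. Plotted and printed CPM use TMM factors over all 12 libraries. Lengths are merged exons of GENCODE on GRCm38, the build called mm10. Ratios of paralogues used counts + 0.5 and an exact permutation test over libraries. The procedure was tested on simulated data.

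The members, role groups and lists of other genes were chosen with earlier results of these data known. All members are named. Values per library are given for the member with the largest absolute fold change of each role in each comparison, for members called by age or not called with c-Myc, and for the paralogue pairs. Of the other pathway genes, the 3 largest increases and decreases called with c-Myc and up to 2 each way in the other comparisons are given, and *Mki67*, *Pcna*, *Myc* and *Trp53* serve as checks. No pair of replicates agreed within sampling noise (their chi-square over its degrees of freedom lay between 5.45 and 136).

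Alternatives were RLE, upper-quartile and library-total scaling, scaling without *Col1a1*, *Col1a2* and *Gm26917*, no filter, at least 10 counts in every library, DESeq2 1.42.0, other sets of libraries, a replicate block, a fold threshold and leaving out each library.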

Additional observations from a re-analysis of the deposited data

Results flagged for a closer look

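In groups of 4 libraries, 2 members had a library whose gap to the nearest other one was large against the range of its group. *Ctps2* was at 14.5 CPM in juvenile replicate 4 and between 6.91 and 7.65 CPM in the other juvenile libraries. *Psat1* was at 26.3 CPM in adult replicate 1 and between 45.5 and 48.6 CPM in the other adult libraries. Of 64 groups examined, chance alone marks about 1 in 20.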

How the results depend on the processing

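Results below are members or genes called at an adjusted p below 0.05, medians of the members and log2 fold changes, for c-Myc over juvenile (a), c-Myc + R172H over c-Myc (b), c-Myc + R172H over juvenile (c) and juvenile over adult (d). With library totals the median of all genes was 0.87 in a, 0.21 in b, 1.12 in c and -0.24 in d. The members' medians became 2.99, 0.20, 3.18 and -0.33, *Impdh1* 0.63 in a and 0.61 in c, *Ctps2* 0.51 and 0.95, *Nme2* 0.83 and 0.89, and 0.055 in b, where *Psat1* became 0.046. *Impdh1* and *Nme2* were then called higher in a and c, *Ctps2* and *Mthfd2* in c, so that 31 members were higher in a and 32 in c. *Nme1* became -0.17 in d, 0 members were lower in c, and 12 genes were called in b.

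Without the filter 1 member was higher in d (*Psat1*), *Nme2* became 0.045 in a, and 222 genes were called in b and 977 in d, with a prior df far above that of the filtered fit. DESeq2 called 1 member higher in d (*Psat1*), 208 genes in b and 1000 in d. With all 12 libraries 2 members were higher in d (*Psat1* and *Impdh1*), *Nme2* became 0.011 in a, and 22 genes were called in b and 1094 in d. Upper-quartile scaling called 1 member lower in a (*Impdh1*). In the groups compared alone 1 member was lower in b (*Mthfd2*) and 629 genes were called. Requiring a log2 fold change of 1 left no member lower in c, and 265 genes in d, 4330 in a, 32 in b and 4724 in c.

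With the replicate block, 1 member was lower in a (*Impdh1*) and 1 in b (*Mthfd2*), 326 genes were called in b, *Ctps2* became 0.00082 in a and 0.23 in c, and *Nme2* 0.049 in a. The numbers do not pair the libraries (correlation of deviations from the group means between -0.066 and 0.048 with juvenile libraries and 0.16 in the 2 pairs of induced ones), and the block changed no other call of a member in a, b and d. In c it added *Mthfd2*.

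Leaving out 1 library each gave 0 to 1 member higher in d and 284 (without juvenile replicate 2) to 885 (without adult replicate 2) genes called. It gave 0 to 1 member lower in a (*Impdh1*, without juvenile replicate 4) and 28 to 29 higher, and in c 27 to 29 higher. In b it gave 8 (without c-Myc replicate 2) to 87 (without juvenile replicate 4) genes and medians from -0.12 to 0.045, *Atic* from -0.053 to 0.10 and *Tk1* from -0.067 to 0.26. *Ctps2* ranged from -0.23 to 0.20 in c, and *Nme2* from -0.054 to 0.032 in a. For an arm left with 1 library, that library is assumed to vary like the others.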
